A study of Homo sapiens with 1 sample.

Results

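Open chromatin was described at 10 genes of the Hippo pathway's nuclear arm, namely the 6 genes of its DNA-binding factors and coactivators (TEAD1, TEAD2, TEAD3, TEAD4, YAP1 and WWTR1, which encodes TAZ) and 4 genes that these factors are known to activate (CCN1, CCN2, ANKRD1 and AMOTL2). A peak was assigned to a gene when its summit, the base of highest signal, lay inside the hg38 GENCODE gene record or within 100 kb of either end. The windows held 225 of the 88615 peaks on the primary chromosomes, 158 at the factor genes and 67 at the target genes, and no peak lay in the windows of more than 1 gene. The genes were grouped by their known roles. The peaks came from ATAC-seq, in which the Tn5 transposase cuts accessible DNA and inserts adapters, on 786-O cells carrying an empty vector. This established human line from a clear cell renal cell carcinoma was the control of a study that overexpressed the DPF3a subunit of a chromatin remodelling complex. The control was 1 library with no replicate, and the DPF3a library is not analysed here, so values below are descriptions without p-values.

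The Hippo pathway is a kinase cascade. When the kinases MST1/2 and LATS1/2 are active, YAP and TAZ are phosphorylated and held in the cytoplasm or degraded. When they are inactive, YAP and TAZ enter the nucleus, bind TEAD proteins on DNA and activate genes of growth, adhesion and the matrix. YAP and TAZ have no DNA-binding domain of their own, and TEAD proteins often share distal elements with the AP-1 factors of the FOS and JUN families.

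The fold of a peak is its summit pileup plus 1, divided by 1 plus a genome-wide background pileup of 0.941, so each fold stands for a whole number of stacked fragments. Pileups in the list ran from 9 to 300. A pileup of 9, the lowest, gives a fold of 5.15 with a 95% counting interval of 2.64 to 9.32, and a pileup of 50 gives 26.3 (19.6 to 34.5). Values in parentheses after a fold are such intervals, which cover counting error only. Of the markers of a renal line, PAX8, PAX2, VIM and CDH16 had a promoter peak and CA9 and LRP2 had none. Of 7 markers of blood, endothelium, liver, astrocytes and muscle only GFAP had one. Since 61.4% of all protein-coding genes had a promoter peak, the open renal markers do not by themselves identify the cells.

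The promoters below are those of members whose RefSeq promoter holds the core letters of a TEAD site. The RefSeq table (GRCh38.p14) listed 10 promoters for 7 of the 10 members, each with 250 bases before and 50 bases after the transcription start site (TSS), and 4 of these held GGAATG on either strand. The stretches give the 250 bases before the start, 5′ to 3′ along the gene, with GGAATG or its reverse complement in capitals. They lie at chr6:131951373-131951622 (CCN2, minus strand), chr10:90921088-90921337 (ANKRD1, minus strand), chr3:134374448-134374697 (AMOTL2, minus strand) and chr11:102110197-102110446 (YAP1, plus strand). All 4 lay wholly within a promoter peak.
CCN2 promoter: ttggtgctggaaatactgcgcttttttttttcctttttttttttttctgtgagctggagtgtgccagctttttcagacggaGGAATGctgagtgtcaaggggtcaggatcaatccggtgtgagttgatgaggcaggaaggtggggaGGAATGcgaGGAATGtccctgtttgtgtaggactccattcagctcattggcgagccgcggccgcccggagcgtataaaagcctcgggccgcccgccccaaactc
ANKRD1 promoter: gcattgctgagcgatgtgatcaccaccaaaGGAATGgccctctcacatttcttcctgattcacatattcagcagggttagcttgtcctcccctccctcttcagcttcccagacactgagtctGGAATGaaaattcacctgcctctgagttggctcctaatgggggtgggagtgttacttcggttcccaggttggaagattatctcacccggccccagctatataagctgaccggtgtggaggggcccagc
AMOTL2 promoter: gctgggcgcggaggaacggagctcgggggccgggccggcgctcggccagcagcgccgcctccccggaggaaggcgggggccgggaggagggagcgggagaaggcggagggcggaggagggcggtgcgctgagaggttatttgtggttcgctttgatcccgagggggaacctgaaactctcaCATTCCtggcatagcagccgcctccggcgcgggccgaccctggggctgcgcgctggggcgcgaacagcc
YAP1 promoter: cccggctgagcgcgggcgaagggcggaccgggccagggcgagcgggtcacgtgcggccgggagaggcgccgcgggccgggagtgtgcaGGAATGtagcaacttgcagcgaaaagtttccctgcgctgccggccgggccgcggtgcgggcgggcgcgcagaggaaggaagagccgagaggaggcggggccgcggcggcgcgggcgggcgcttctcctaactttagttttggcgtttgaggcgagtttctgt

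CCN2 carried 3 such sites, which began 169, 104 and 95 bases before the start, all in the direction of the gene. ANKRD1 had 2, at 220 and 128 bases before the start. AMOTL2 had 1 on the opposite strand, whose first base in the direction of the gene lay 69 bases before the start, and YAP1 had 1 at 162 bases. The TEAD2, TEAD3 and WWTR1 promoters in the table held none, and none of the 10 listed promoters held TGACTCA, the AP-1 site, or a CArG box, the site of SRF. Over the 35116 RefSeq promoters, 14.0% had at least 1 GGAATG, 1.37% at least 2 and 0.128% at least 3, while a scrambled word of the same letters, GAGTGA, was present at least 1, 2 and 3 times in 14.6%, 1.56% and 0.211%, no more rarely than GGAATG. A match of letters is a description and does not show that a factor was bound.

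All 4 target genes had a peak at the promoter, taken as 1 kb upstream to 100 bp downstream of the TSS of any transcript, and 4 of the 6 factor genes had one. Among all 20033 protein-coding genes 61.4% had a promoter peak, and 52.2% had one at the canonical transcript. The median fold of the strongest promoter peak was 47.7 over the targets and 23.2 over the factors, with genes that lacked one ranked lowest, beside 13.4 over all protein-coding genes. With no replicate, 4 and 6 genes and folds that depend on local copy number, this difference was not tested.

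Among the targets, ANKRD1, which encodes a nuclear ankyrin-repeat protein, had a promoter fold of 52.6 (42.9 to 63.8), its summit lying 232 bp upstream of the start. AMOTL2, an angiomotin family protein that itself restrains YAP, had 51.5 (42.0 to 62.6) at 93 bp upstream, and weaker peaks at alternative starts of 9.79 and 8.24. CCN1, a secreted matricellular protein also called CYR61, had 43.8 (35.0 to 54.1), with a summit 76 bp upstream of the start in a peak 4167 bp wide. CCN2, the related matricellular protein CTGF, had the lowest of the 4, 30.9 (23.7 to 39.7), with its summit 57 bp upstream of the start in a peak 2539 bp wide. In this order the intervals of neighbouring genes overlapped, and the intervals of ANKRD1 and AMOTL2 lay wholly above that of CCN2. Promoters as poor in GC as those of CCN2 and ANKRD1 had a canonical promoter peak in 40.5% and 37.2% of genes.

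The factor genes were less alike. WWTR1 had 4 promoter peaks. The canonical one, which also lay at the promoter of the antisense gene WWTR1-AS1, had a fold of 52.0 (42.4 to 63.2), and 2 at alternative starts inside the gene had 59.3 (49.0 to 71.1) and 53.6 (43.8 to 64.9), so their intervals overlapped, whereas the fourth was at 5.67. YAP1 had 28.9 (21.9 to 37.4) at its canonical start and 54.1 (44.3 to 65.4) at an alternative start near the end of the gene, 116 kb downstream. These intervals did not overlap. Another promoter peak, beside that of 54.1, had 12.9 (8.44 to 18.9).

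The 4 TEAD genes encode DNA-binding proteins with closely related TEA domains, and their promoters differed. TEAD1 had a promoter fold of 26.3 (19.6 to 34.5) and TEAD4 one of 20.1 (14.4 to 27.4), intervals that overlapped. At TEAD3 no summit lay in the promoter, but a peak of fold 8.24 (4.84 to 13.3) spanned the canonical start, with its summit 540 bp downstream of it. TEAD3 gained a promoter peak when the promoter was widened to 1 kb on both sides. TEAD2 had no peak over or inside the gene. Its nearest summit lay 29589 bp upstream of the canonical start, with a fold of 6.18, and the peak-free stretch around that start ran for 59.9 kb and held the canonical starts of 4 protein-coding genes. Of genes whose canonical promoter had a GC content within 2.5 points of that of TEAD2, 60.7% had a peak there, and for TEAD3 the share was 64.8%. No alignment of 10 kb or more at 95% identity was found between a member window and the 261 alternative sequences of hg38, where reads would map to more than 1 place.

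**Figure D1:**
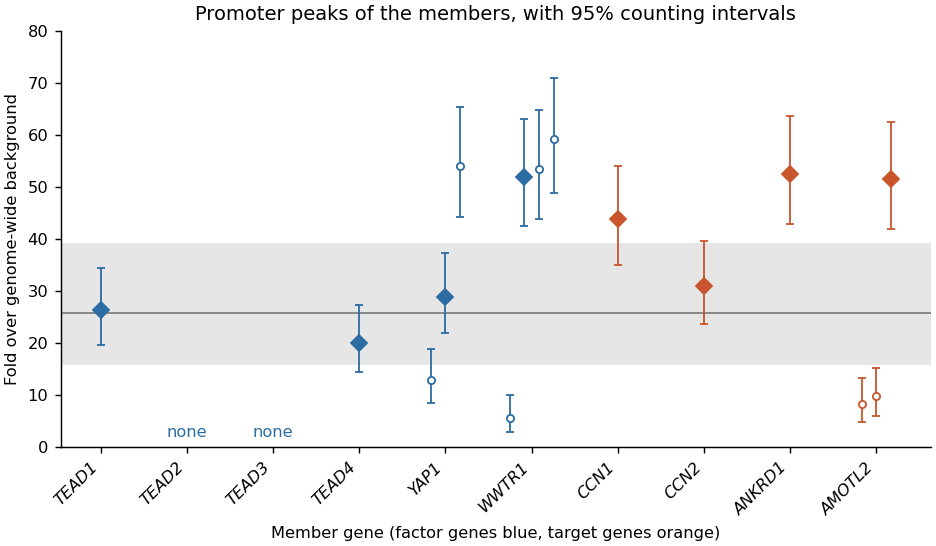
Fold over the genome-wide background (y axis) of each promoter peak of the 10 genes (x axis), with 95% counting intervals as bars. Filled diamonds mark the canonical start and open circles alternative starts, and the grey line and band give the median and middle 50% of the strongest promoter folds of all protein-coding genes that have one. The strongest promoter peaks of the 4 target genes sit at 30.9 to 52.6, with weaker ones of AMOTL2 at 9.79 and 8.24. TEAD2 and TEAD3 have no promoter peak.

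Folds refer to 1 background for the whole genome, so a gain or loss of DNA moves all folds of a region. The median fold of protein-coding promoter peaks within 5 Mb was 35.6 around CCN1, 31.9 around WWTR1, 27.3 around ANKRD1, 26.3 around TEAD1, 25.2 around AMOTL2, 21.9 around CCN2, 19.1 around TEAD4, 17.5 around YAP1, 16.2 around TEAD3 and 14.2 around TEAD2. The regions of TEAD2 and TEAD3 were thus the lowest of the 10. After division by these local medians, chosen after the data were seen, the median promoter value was 1.67 for the targets and 1.03 for the factors. TEAD2 and TEAD3, which had no promoter peak, ranked lowest. The single genes overlapped. YAP1 at 3.09 lay above every target, the highest of which was AMOTL2 at 2.04. That YAP1 value rests on the peak of 54.1 at the alternative start near the gene end. The canonical YAP1 peak of 28.9, divided by the same median, lay below ANKRD1 and AMOTL2. WWTR1 at 1.855, also from a peak at an alternative start, lay below ANKRD1 at 1.925 and above CCN2 at 1.41 and CCN1 at 1.23. The strongest promoter peak of every target was at its canonical start. TEAD4 at 1.05 and TEAD1 at 1.0 lay below all targets. The part of copy number in the folds was not tested.

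The number of peaks is set out per window first, where longer genes have longer windows. WWTR1 held 48 peaks in its window and TEAD1 42, of which 30 lay inside the gene in each, more than in 99.7% and 99.4% of protein-coding gene windows. TEAD4 had 26, AMOTL2 25, YAP1 22 and CCN1 22. ANKRD1 and TEAD3 had 12 each, and CCN2 and TEAD2 8 each, against a median of 11 over all protein-coding genes. The median was 24 for the factors, whose genes were 21.9 to 270 kb long, and 17 for the targets, whose genes were 3.20 to 20.1 kb long.

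Per Mb of window the order changed. WWTR1 (114 peaks per Mb), AMOTL2 (114) and CCN1 (108) were densest, and CCN2 (39.4) and TEAD2 (36.1) lay below the median of all genes, 44.4. In the flanks alone, which were equally long for each gene, the medians were 13.5 peaks for the factors and 14.5 for the targets. CCN1, CCN2 and TEAD2 had no summit inside the gene record, as did 34.9% of all protein-coding genes, although the promoter peak of CCN1 and that of CCN2 extended into the gene. The summit lay nearest to a TSS of the member itself for 57.0% of the factor gene peaks and 67.2% of the target gene peaks. The other peaks stood nearer to a neighbour, and peaks were assigned by distance with no measurement of contact.

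**Figure D2:**
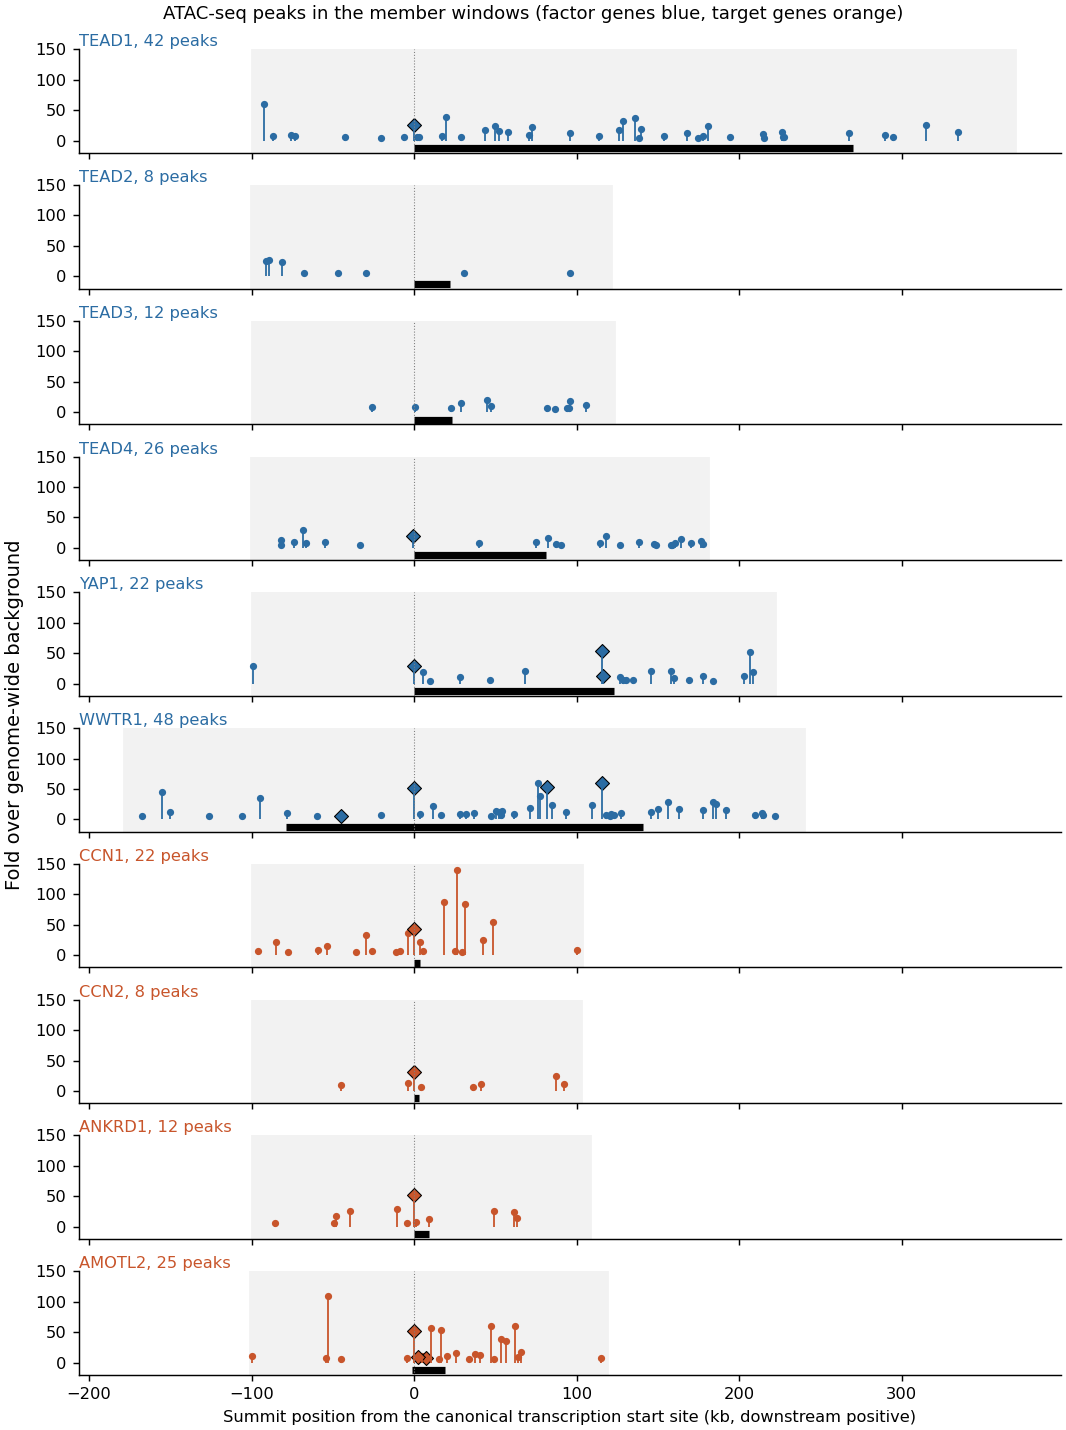
Fold of every peak (y axis) against the distance of its summit from the canonical TSS in kb (x axis), 1 panel per gene. Black bars are gene records, grey shading the window, diamonds the promoter peaks of the gene and dots other peaks. CCN1 has a group of high peaks 18.5 to 48.5 kb downstream of its start and AMOTL2 high peaks on both sides, while all peaks of the TEAD2, TEAD3 and TEAD4 windows stay at or below 28.9.

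The highest peaks of the 10 windows lay away from the promoters, at CCN1 and AMOTL2. Downstream of CCN1, a peak of 3120 bp with its summit 26.6 kb from the start reached a fold of 140 (124 to 157). It was flanked by peaks of 86.6 (74.0 to 101) at 18.5 kb, 84.5 (72.1 to 98.4) at 31.3 kb, 24.7 (18.3 to 32.7) at 42.4 kb and 54.1 (44.3 to 65.4) at 48.5 kb. CCN1 was the nearest protein-coding gene by TSS for all 5. The peak of 86.6 lay at the promoter of an unnamed long noncoding RNA gene, and the summits of the other 4 lay in no gene record. The intervals of the 3 highest were wholly above that of the CCN1 promoter peak.

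AMOTL2 had its highest peak 53.1 kb upstream, with a fold of 110 (95.5 to 126), above the interval of its promoter. On the other side of the start it had intronic peaks of 57.2 (47.1 to 68.8) at 10.2 kb and 52.6 (42.9 to 63.8) at 16.4 kb. Beyond the gene end lay peaks of 59.3 (49.0 to 71.1) at 47.4 kb and 59.8 (49.4 to 71.7) at 61.9 kb, which were 4402 and 4887 bp wide. The first lay inside the noncoding RNA gene LINC02004 and the second at its promoter. The highest peak outside the gene's own promoters was lower in 99.9% of protein-coding gene windows than at CCN1 and in 99.6% than at AMOTL2, where windows of neighbouring genes share peaks. These ranks use folds without local scaling. Divided by the median promoter fold within 5 Mb, the highest other peak was 4.35 at AMOTL2, 3.93 at CCN1 and, next among the 10 genes, 3.0 at YAP1.

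The other targets had no such peak. The highest other peak in the window was 28.9 (21.9 to 37.4) at ANKRD1, 10.2 kb upstream and between genes, and 25.2 (18.7 to 33.3) at CCN2, 87.2 kb downstream inside ENPP1, which encodes a pyrophosphatase. Both fell below the median of all genes, 39.2, and at ANKRD1 the interval lay wholly below that of its own promoter. Among the factors, WWTR1 reached 60.3 (49.9 to 72.2) in an intron 76.1 kb downstream of the canonical start, and TEAD1 59.8 (49.4 to 71.7) between genes 92.3 kb upstream. The TEAD1 peak lay wholly above the TEAD1 promoter.

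The highest other peaks of the remaining factors were promoters of other genes. At YAP1 it was that of BIRC3, an inhibitor of apoptosis, at 52.6 (42.9 to 63.8). At TEAD4 it was that of TULP3, a protein of cilium transport, at 28.9 (21.9 to 37.4), at TEAD2 that of PIH1D1 at 27.3 (20.5 to 35.7), and at TEAD3 that of FANCE, a Fanconi anaemia protein, at 19.6 (13.9 to 26.8). The median highest other peak was 69.3 for the targets and 40.7 for the factors. Restricted to peaks whose nearest protein-coding TSS was that of the member, it was 69.3 and 18.6. No target gene lay near the target median, since CCN1 and AMOTL2 lay far above it and CCN2 and ANKRD1 far below.

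**Figure D3:**
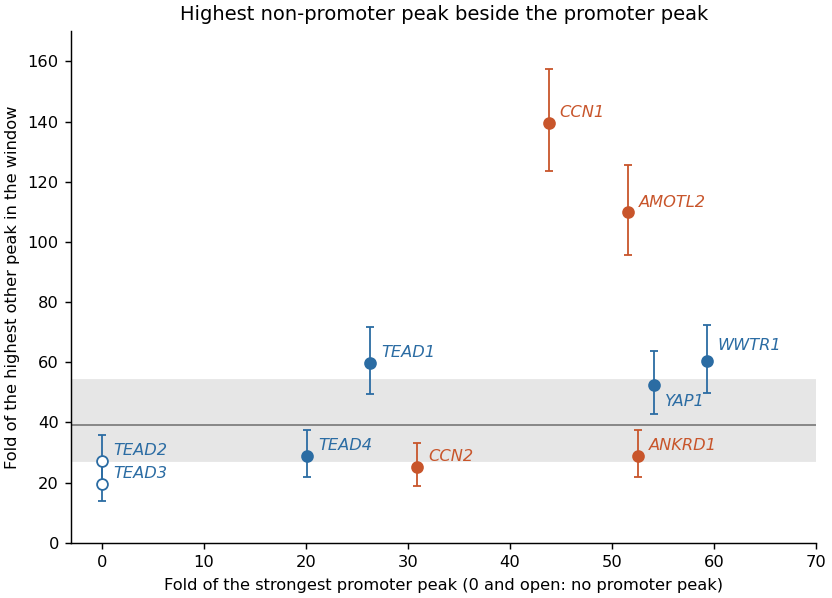
Fold of the highest peak outside the promoters of the gene (y axis, bars are 95% counting intervals) against the fold of its strongest promoter peak (x axis), 1 point per gene. Open points at 0 are genes with no promoter peak, and the grey line and band give the median and middle 50% of all protein-coding genes on the y axis. CCN1 and AMOTL2 stand at 140 and 110, while CCN2 and ANKRD1 lie at 25.2 and 28.9.

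Peaks with a fold of 20.6 or more, the 25.2% of the list with the highest folds when ties are kept, made up 25 of the 67 target gene peaks (37.3%, exact binomial interval 25.8 to 50.0%) and 32 of the 158 factor gene peaks (20.3%, 14.3 to 27.4%). TEAD3 had none of its 12 peaks in that range and TEAD4 1 of 26, whereas CCN1 had 10 of 22. Peaks of 1 window share local copy number, so these intervals are too narrow as errors of a share.

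TEAD and AP-1 sites were then sought within 50 bp of each summit, on both strands. GGAATG was present at 28 of the 225 member summits (12.4%, exact interval 8.43 to 17.5%), beside 9.41% of all summits, and the scrambled word GAGTGA at 5.78% beside 7.61%. Of the target gene peaks 16.4% (8.49 to 27.5%) held GGAATG and of the factor gene peaks 10.8% (6.39 to 16.7%), and both intervals include the share of all summits. Among peaks at no promoter of any gene, the shares were closer. They were 12.7% of 55 target gene peaks (5.27 to 24.5%) and 11.5% of 130 factor gene peaks (6.6 to 18.3%), beside 10.3% of all such summits. TGACTCA was present at 26 member summits (11.6%, 7.69 to 16.5%) beside 15.7% of all summits, with 16.4% at target and 9.49% at factor genes. Its scrambled word CATCAGT was at 2.67% and 1.47%. The upper bound for the factor gene peaks, 15.2%, lay below the share of all summits at this setting. That interval treats peaks of 1 window as independent. The factor share was 19.0% within 100 bp beside 25.7% of all summits, and 6.33% within 25 bp beside 8.09%. With scores above 200 it was 13.0% beside 17.1%. The target share was also below that of all summits within 100 bp, at 16.4%, and within 25 bp, at 7.46%. With scores above 200 the target share was higher, at 20.6%. No intervals were taken at these other settings, and a depletion was not tested. No member summit had a CArG box, which was at 0.48% of all summits and which a count of 0 in 225 cannot tell apart from that share.

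**Figure D4:**
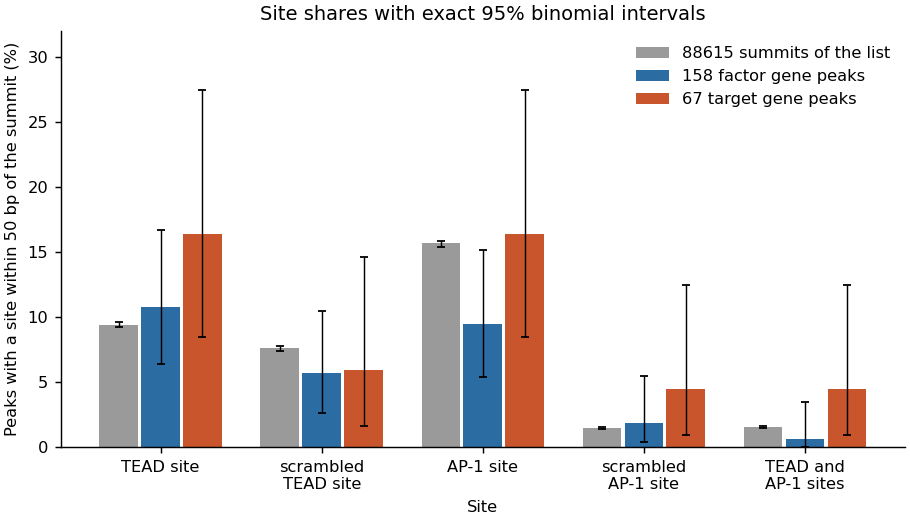
Share of peaks with a site within 50 bp of the summit in percent (y axis) for each site (x axis), with exact 95% binomial intervals. Grey bars are the whole list, blue bars factor gene peaks and orange bars target gene peaks. The TEAD share is 16.4% at target and 10.8% at factor genes beside 9.41% in the list, with wide intervals.

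At the promoters of the targets the share was higher than over all their peaks. GGAATG lay within 50 bp of the summit of the canonical promoter peak in 4 of 4 target genes, with 2 sites at CCN2, and in 1 of 4 factor genes, TEAD4, beside 5.56% of the 17170 promoter summits of any gene. TGACTCA lay near none of these 8, beside 6% of promoter summits, but near 2 of the WWTR1 summits at alternative starts (53.6 and 5.67). Within 100 bp the count was 4 of 4 for targets and 2 of 4 for factors, YAP1 being added, where 10.2% of promoter summits had a site. Within 25 bp it was 1 of 4 for targets, ANKRD1, and 1 of 4 for factors, where 2.67% did. These 4 genes were chosen as known targets of TEAD and YAP, so the count is a description and was not tested. The YAP1 peak at the alternative start near the gene end had 2 GGAATG within 50 bp. By contrast, the summits of the highest peaks at CCN1, TEAD1 and WWTR1, at 140, 59.8 and 60.3, had neither site within 50 bp, and that of AMOTL2 at 110 had TGACTCA and no GGAATG. Other strong peaks were mixed. At CCN1 the peak of 86.6 had TGACTCA, and those of 84.5 and 54.1 had neither site. At AMOTL2 the peak of 57.2 had GGAATG, and those of 59.8, 59.3 and 52.6 had neither.

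Both sites occurred at 4 member summits (1.78%) beside 1.58% of all summits, 2 of them at CCN2 and all outside promoters. They are shown because TEAD and AP-1 proteins are known to occupy elements together, as the 101 bases around each summit on the plus strand of hg38 with GGAATG and TGACTCA in capitals on either strand (the AMOTL2 stretch holds the latter as its reverse complement), at chr6:131954847-131954947 and chr6:131996067-131996167 (CCN2), chr11:102256343-102256443 (YAP1) and chr3:134348712-134348812 (AMOTL2).
CCN2 upstream, 3.53 kb: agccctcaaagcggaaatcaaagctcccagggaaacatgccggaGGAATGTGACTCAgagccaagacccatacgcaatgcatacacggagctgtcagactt
CCN2 upstream, 44.7 kb: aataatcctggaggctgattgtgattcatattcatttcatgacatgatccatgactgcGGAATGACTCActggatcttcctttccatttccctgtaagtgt
YAP1 downstream, 146 kb: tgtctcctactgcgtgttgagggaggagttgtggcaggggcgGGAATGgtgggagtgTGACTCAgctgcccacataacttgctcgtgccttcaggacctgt
AMOTL2 downstream, 25.7 kb: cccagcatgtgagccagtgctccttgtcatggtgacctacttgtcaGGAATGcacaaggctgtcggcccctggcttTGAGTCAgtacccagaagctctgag

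At the CCN2 peak 3.53 kb upstream of the start, with a fold of 12.9 (8.44 to 18.9), the sites touched with 0 bases between them. At the CCN2 peak 44.7 kb upstream, with 9.79 (6.01 to 15.2), they overlapped by 2 bases, sharing the letters TG. The spacing was 9 bases at the YAP1 peak, 146 kb downstream of the start and past the gene end with a fold of 20.1 (14.4 to 27.4), and 24 bases at the AMOTL2 peak, 25.7 kb downstream of the start with 15.5 (10.5 to 22.0). The AMOTL2 peak lay past the gene end, in an exon of an unnamed long noncoding RNA gene. Of the 1398 summits of the whole list with both sites, 15.2% had sites that touched or overlapped, which is 0.239% of all summits. The spacing was examined after the CCN2 sequences had been seen. All 4 peaks were lower than the canonical promoter peaks of their genes.

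Other genes of the pathway were mostly open at the promoter. Of 19 Hippo pathway genes upstream of or beside YAP and TAZ, 16 had a promoter peak (84.2%, exact interval 60.4 to 96.6%), beside 61.4% of all protein-coding genes, and the median fold was 26.3 with genes that lacked a peak ranked lowest, beside 13.4 over all protein-coding genes ranked in that way. The highest were STK3, the kinase MST2, at 91.2 (78.3 to 106), FAT4, a giant cadherin, at 61.8 (51.3 to 73.9), and PTPN14, a phosphatase that binds YAP, at 47.9 (38.7 to 58.7). The lowest were SAV1, the scaffold of the MST kinases, at 7.21 (4.08 to 12.0), AMOTL1 at 17.5 and TAOK1, a kinase upstream of MST, at 18.0. VGLL1, VGLL2 and VGLL3 had none. These encode Vestigial-like cofactors that compete with YAP for TEAD, and their relative VGLL4, a repressor of TEAD, had 26.3.

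Of 16 further genes described as YAP/TAZ targets, 14 had a promoter peak (87.5%, 61.7 to 98.4%) and the median fold ranked likewise was 22.4. GADD45A, a stress-response gene, was highest at 59.8 (49.4 to 71.6), followed by TGFB2, a TGF-β ligand, at 54.1 (44.3 to 65.4) and NT5E, the ectonucleotidase CD73, at 32.5. DOCK5 at 12.4, CRIM1 at 13.9 and MYOF at 17.0 were lowest, and ARHGEF17 and FOXF2 had none. Both intervals for these shares lay close to or included the share of all genes, and an open promoter gives no measure of transcription.

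**Figure D5:**
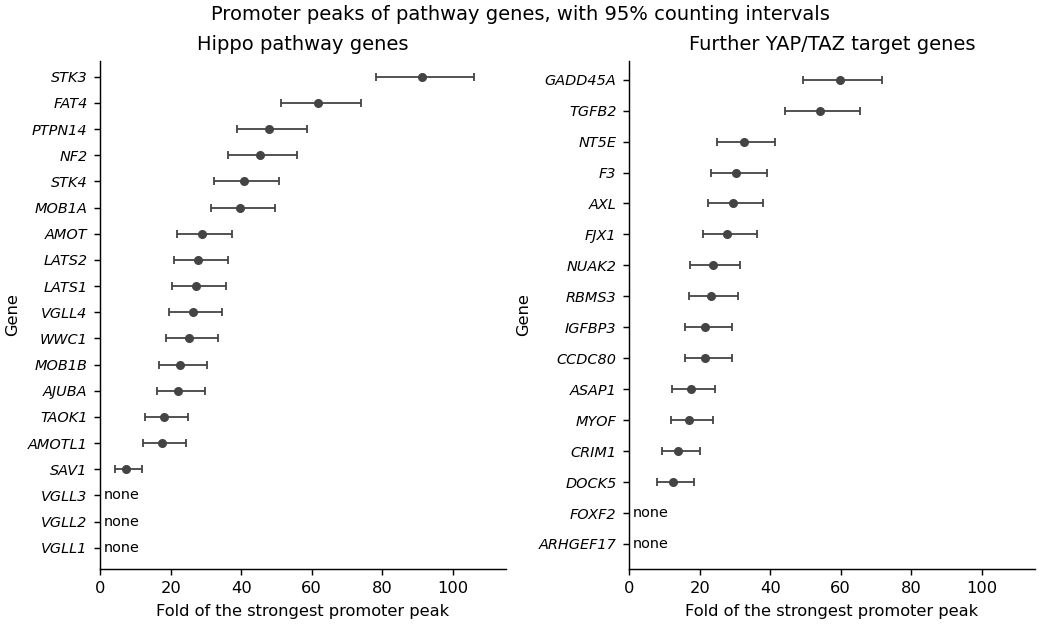
Fold of the strongest promoter peak (x axis, bars are 95% counting intervals) of Hippo pathway genes and of further YAP/TAZ target genes (y axis), with genes that have no promoter peak marked as none. STK3 is highest at 91.2, and VGLL1, VGLL2, VGLL3, ARHGEF17 and FOXF2 have none.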

How the data were processed

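ATAC-seq peaks of 1 library of 786-O cells with empty vector were analysed. According to the study's methods and the submitters' processing notes, the authors used fastp for trimming and Bowtie2 2.3.4.3 for alignment to hg38, removed duplicates and reads of low mapping quality, and called peaks with MACS2 2.2.6 in that library alone. A shift to the Tn5 cutting position is not given in the sources used here, so sites near a summit may be displaced by some bases. The deposited ratio (fold) sets the pileup at the summit against 1 genome-wide background, and the deposited list also gives −log10 p-values, −log10 q-values and a score (10 times the −log10 q-value), the lowest score being 52. The study's methods give a looser q-value limit for ATAC-seq peak calling than this lowest score, so weaker called peaks may be missing from the list. Names of the peaks include a wild-type tag, and the label (empty vector) was used.

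Pileups were recovered from the folds with a background of 0.941 and were whole to within 1.83e-05. The total number of reads is unknown. Summit pileups are maxima and so biased upward. Poisson (pileup) and Clopper-Pearson (share) 95% intervals cover counting error only.

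GENCODE release 44 gave genes and TSSs. Sites were read from hg38. Python 3.11.15, numpy 2.4.6, pandas 2.3.3, scipy 1.17.1, matplotlib 3.10.9, samtools 1.23.1 and minimap2 2.31-r1302 were used. Functions were tested on simulated data, in which 200 of 200 planted promoter peaks and 1000 of 1000 planted sites were found. The 10 members, their strongest promoter peak and highest other peak, peaks with both sites, and the genes of each list without a promoter peak or with the 3 highest and 3 lowest folds are named; the members and lists were chosen with earlier results of these data known. Alternatives were the score limit, window, promoter definition, nearest gene, fold scaling, site distance and a longer TEAD site. A further marker of the renal list is not reported here.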

Additional observations from a re-analysis of the deposited data

How the results depend on the processing

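Every value rested on 1 library, so no replicate could be left out. No paired analysis was possible because only the control group was analysed. The median number of peaks per window, 24.0 for factors and 17.0 for targets, was 15.5 and 10.5 with scores above 100, 9.5 and 9.5 with scores above 200, 13.0 for factors with a window of 50 kb (12.5 for targets), and 9.5 and 9.5 for peaks nearest to the member's TSS. By construction these settings keep fewer peaks, and the order of factors above targets was lost under 2 of them. The median promoter fold, 23.2 and 47.7, became 1.14 and 1.96 divided by the chromosome's median promoter fold and 1.03 and 1.67 divided by that within 5 Mb. The median highest other fold, 40.7 and 69.3, was 20.1 and 44.3 within 50 kb, 18.6 for factors near the member's TSS, 2.1 and 2.9 on the chromosome scale and 1.91 and 2.54 on the 5 Mb scale. The TEAD share of member peaks, 12.4%, was 18.4% with scores above 200, beside 10.1% of all such summits, 20.9% within 100 bp and 6.22% within 25 bp, where all summits had 17.0% and 4.73%, and 8.44% with the 7-letter site GGAATGT or GGAATGC, beside 5.48%. The AP-1 share, 11.6%, was 18.2% within 100 bp and 6.67% within 25 bp, beside 25.7% and 8.09%. The difference of targets minus factors in the TEAD share, 5.66 percentage points, was 12.3 with scores above 100, 16.4 above 200 and 14.9 within 100 bp, with 23.9%, 29.4% and 31.3% of target peaks holding a site. Outside promoters of any gene, within 50 bp, the TEAD shares were close, 12.7% at target and 11.5% at factor peaks. The difference of targets minus factors reversed for the AP-1 share within 100 bp, at -2.57 percentage points, and for the TEAD share within 25 bp, at -0.359. The cause was not tested. TEAD2 lacked a promoter peak under all promoter definitions tried, and TEAD3 under all except 1 kb on both sides. Pileups near 9 leave weak peaks uncertain, and genes without a promoter peak may be open below that limit.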
